A study of Mus musculus with 6 samples.

Results

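The Fc receptor genes described here are Fcgr1, Fcgr3, Fcgr4, Fcgr2b, Fcer1g and Fcgrt. They were taken by gene symbol, as 6 of the 57180 genes in the deposited table, and all 6 were among the 14761 genes with enough counts to be tested. Their RNA was measured in 2 groups of sorted liver NK cells, titled CD36+ NK and CD36- NK, with 3 libraries in each group, which the series' design describes as biological triplicates. Both groups came from livers of male C57BL/6J mice, 6 to 8 weeks old, that had received CCl4, a liver toxin that brings on fibrosis. The dose was 2.5 ml/kg of a 20% solution in olive oil, given 2 times per week for 4 weeks, and livers were taken 48 h after the last injection. NK cells were gated as CD3- NK1.1+ and divided by surface CD36, a scavenger receptor that takes up fatty acids, to ask how the presence of CD36 on NK cells in the fibrotic liver goes with their expression profile. The 6 libraries include none from oil-treated mice, so every value below is from CCl4-treated animals.

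Fcγ receptors bind the constant part of IgG and link antibodies to the cells that act on them. Mouse Fcgr1, Fcgr3 and Fcgr4 encode activating receptors whose surface expression and signal depend on the FcR γ chain, the dimer encoded by Fcer1g, which carries the ITAM motif that recruits the kinase Syk. Fcgr2b encodes the inhibitory receptor, whose ITIM recruits the phosphatase SHIP-1, and Fcgrt encodes FcRn, an MHC class I-like chain that pairs with β2-microglobulin and returns IgG and albumin from endosomes to the cell surface. In the mouse, NK cells carry out antibody-dependent killing mainly through the product of Fcgr3. Fcgr4 is best known from monocytes, macrophages and neutrophils, and Fcgr2b from B cells, myeloid cells and liver sinusoidal endothelium.

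Fcgr4 and Fcgrt were higher in CD36+ NK cells, by 10.2-fold and 3.98-fold, and the other 4 genes did not pass the test. Of the 6 Fc receptor genes, 2 were thus differentially expressed genes (DEGs), which are genes with an adjusted p under 0.05 and a fold change above 2 in edgeR's quasi-likelihood test. Among all tested genes 5.96% were DEGs, and 2.98% were DEGs higher in CD36+ NK cells. The median log2 fold change was 0.64 over the 6 genes and 0.01 over all tested genes. Adjusted p-values are Benjamini-Hochberg values from that test over all 14761 genes. They weigh the difference between the groups against the spread between these libraries. In sorted bulk samples fewer cells of a type and less RNA per cell cannot be told apart.

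The libraries held 10292480 to 13787189 counts each, with a biological coefficient of variation of 20.3%. Cd36, the gene of the sort, was counted 1232, 3569 and 2859 times in CD36+ NK replicates 1 to 3 and 186, 359 and 175 times in CD36- NK replicates 1 to 3 (log2 fold change 3.27, edgeR adjusted p = 0.00615). All 11 NK lineage markers were detected in every library and all 11 were lower in CD36+ NK cells, with a summed level of 1164 to 1411 CPM (counts scaled to the library total) against 6075 to 7894 CPM. Klrb1c, which encodes the NK1.1 of the gate, was among them, at 88.9 CPM against 489 CPM (log2 fold change -2.46, edgeR adjusted p = 0.000428). A list of macrophage and Kupffer cell markers summed to 6917 to 9720 CPM in CD36+ NK libraries and 2498 to 5909 CPM in CD36- NK libraries, and a B cell list to 4719 to 5297 CPM against 3284 to 3746 CPM. CD36+ NK replicate 1 stood apart from its group. Its T cell markers summed to 324.5 CPM against 26.7 and 47.0 CPM in the other CD36+ NK libraries, and its neutrophil markers to 4494 CPM against 762 and 968 CPM.

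Fcgr4 encodes an activating receptor for IgG2a, IgG2b and IgG2c (ENSMUSG00000059089; chromosome 1, 170846489 to 170857330, plus strand, in the coordinates of the deposited table, whose build is not named there). Its counts were 1163, 2486 and 2381 in CD36+ NK replicates 1 to 3 and 162, 303 and 84 in CD36- NK replicates 1 to 3, or 104, 183 and 198 CPM against 12.5, 26.8 and 8.20 CPM. Each CD36+ NK library lay above each CD36- NK library, and the lowest of the former, replicate 1, was still well above the highest of the latter, replicate 2. The means were 161 ± 50.7 CPM and 15.8 ± 9.74 CPM (SD, n = 3 each), a log2 fold change of 3.35 (SE 0.458, 95% interval 2.27 to 4.43, edgeR adjusted p = 0.00682). Without CD36+ NK replicate 1 the log2 fold change was 3.58 (edgeR adjusted p = 0.00683).

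Fcgrt, which encodes the heavy chain of FcRn, was the other DEG (ENSMUSG00000003420; chromosome 7, 44742414 to 44753275, minus strand). In CD36+ NK cells the libraries held 835, 1793 and 1802 counts of it, and in CD36- NK cells 386, 435 and 217, or 74.3, 132 and 149.8 CPM against 29.7, 38.5 and 21.2 CPM. The groups did not overlap, and replicate 1 was again the lowest of the CD36+ NK libraries. The means of 119 ± 39.5 CPM and 29.8 ± 8.63 CPM (SD, n = 3 each) gave a log2 fold change of 1.99 (SE 0.309, 95% interval 1.27 to 2.72, edgeR adjusted p = 0.0107). The call rested in part on CD36- NK replicate 1, without which the log2 fold change was 1.97 with an edgeR adjusted p of 0.0522. B2m, which encodes the β2-microglobulin partner of FcRn, had 2138 ± 301 CPM in CD36+ NK cells and 1969 ± 73.4 CPM in CD36- NK cells (SD, n = 3 each; log2 fold change 0.12, edgeR adjusted p = 0.60).

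Fcgr1 encodes the high-affinity receptor for monomeric IgG (ENSMUSG00000015947; chromosome 3, 96190225 to 96201285, minus strand). Its counts were 524, 720 and 837 in the CD36+ NK libraries and 446, 520 and 194 in the CD36- NK libraries, or 46.6, 53.0 and 69.6 CPM against 34.3, 46.0 and 18.9 CPM. The CD36+ NK libraries all lay above the CD36- NK libraries, but CD36+ NK replicate 1 and CD36- NK replicate 2 were almost level. The log2 fold change of 0.77 (SE 0.309, 95% interval 0.04 to 1.5) did not pass the test over all genes (edgeR adjusted p = 0.168), and it was 0.48 without CD36- NK replicate 3. Fcgr4, Fcgrt and Fcgr1 were the 3 of the 6 Fc receptor genes whose CD36+ NK libraries all exceeded the CD36- NK libraries in CPM, a separation that 17.0% of all tested genes showed in that direction, while 15.7% showed the opposite one and 32.8% either.

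Fcgr3, the low-affinity receptor of NK cells and myeloid cells, was present in all libraries (ENSMUSG00000059498; chromosome 1, 170878743 to 170892504, minus strand). Its 3 CD36+ NK libraries held 1486, 1661 and 2316 counts and its 3 CD36- NK libraries 1468, 1424 and 774, or 132, 122 and 193 CPM against 113, 126 and 75.6 CPM. The groups overlapped, with CD36+ NK replicate 2 below CD36- NK replicate 2. The log2 fold change was 0.51 (SE 0.236, 95% interval -0.05 to 1.06, edgeR adjusted p = 0.229), and it was 0.28 without CD36+ NK replicate 3 and 0.31 without CD36- NK replicate 3.

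For Fcgr2b, the inhibitory receptor gene, the levels were close (ENSMUSG00000026656; chromosome 1, 170786186 to 170804116, minus strand). Counts of 1862, 2965 and 2271 in the CD36+ NK libraries and 2175, 1957 and 1462 in the CD36- NK libraries came to 166, 218 and 189 CPM against 167, 173 and 143 CPM. CD36+ NK replicate 1 lay within the range of the CD36- NK libraries. The log2 fold change was 0.25 (SE 0.131, 95% interval -0.06 to 0.55, edgeR adjusted p = 0.291), and it was 0.14 without CD36+ NK replicate 2 and 0.16 without CD36- NK replicate 3.

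Fcer1g was the most abundant of the 6 genes and the one with the smallest difference (ENSMUSG00000058715; chromosome 1, 171057141 to 171061934, minus strand). Its counts were 3134, 4598 and 4473 in the CD36+ NK libraries and 4403, 3754 and 2771 in the CD36- NK libraries, or 279, 338 and 372 CPM against 338, 332 and 271 CPM. The highest CD36- NK library, replicate 1, was level with CD36+ NK replicate 2. The log2 fold change was 0.07 (SE 0.142, 95% interval -0.26 to 0.41, edgeR adjusted p = 0.804), and its sign turned to -0.02 without CD36+ NK replicate 3 and to -0.03 without CD36- NK replicate 3.

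**Figure D1:**
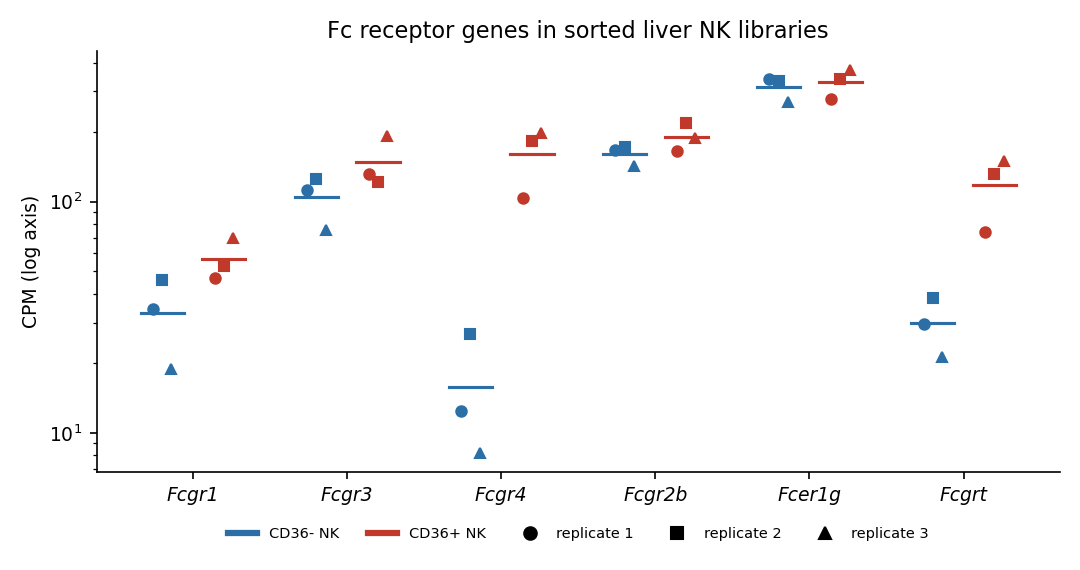
Level of each Fc receptor gene in every library, in CPM on a log axis; colours give the group, symbols the replicate and horizontal bars the group mean (n = 3). Fcgr4 and Fcgrt lie apart between the groups (104 to 198 against 8.20 to 26.8 CPM for Fcgr4), while Fcer1g, Fcgr2b and Fcgr3 overlap.

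Fcgr2b, Fcgr3, Fcgr4 and Fcer1g lie on chromosome 1, with Fcgr4 between Fcgr2b and Fcgr3, and only Fcgr4 of these was a DEG. Fcgr2b and Fcgr3 have alike extracellular domains, so reads could be divided between them. Their coding sequences were 84.4% identical over 784 aligned bases, and 10.2% of the 50-base words of Fcgr3 also occurred in Fcgr2b, while no other pair of the 6 genes shared one. The longest stretch in common, 129 bases, spans a splice junction. Its first 102 bases, from exon 3 of both genes, are given here because a read within them fits either gene (GENCODE M21, GRCm38, minus strand; chr1:170967980-170968081 in Fcgr2b and chr1:171057691-171057792 in Fcgr3):
Fcgr2b and Fcgr3: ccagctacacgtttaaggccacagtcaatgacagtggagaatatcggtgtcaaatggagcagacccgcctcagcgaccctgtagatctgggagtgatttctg
The levels of Fcgr2b and Fcgr3 are uncertain to the extent that such reads were assigned to one or the other. Genes that overlap Fcgr2b, Fcgr3, Fcgr4 and Fcgrt had few counts over all 6 libraries, from 2 for mmu-mir-6546 in Fcgr3 to 35 for Gm38204 in Fcgr2b.

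A short element common to many promoters was found upstream of the 3 activating chains. All 6 genes were matched by symbol to RefSeq promoter windows (GRCm38.p6). The 250 bases before the start were searched on both strands for GAGGAA, the core bound by PU.1, a myeloid and B cell ETS factor, and for TTCNNNGAA, the palindrome bound by STAT factors. These motifs were chosen after the windows had been read, so a match in some of the 6 genes and not in others is a description of letters only. GAGGAA or its reverse complement occurred in Fcgr1, Fcgr3 and Fcgr4, and in 25.9% of 27025 genes with a window. TTCNNNGAA occurred in Fcgr1, and in 8.13% of the genes. The matches are shown in the direction of transcription with the element in capitals, so that the upstream letters of the activating chains can be seen side by side:
Fcgr4, chr1:171018884-171018925, plus strand: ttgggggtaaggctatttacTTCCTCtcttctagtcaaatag
Fcgr3, chr1:171059395-171059429, minus strand: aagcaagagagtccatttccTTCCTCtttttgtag
Fcgr1, chr3:96293999-96294044, minus strand: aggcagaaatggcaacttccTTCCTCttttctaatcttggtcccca
Fcgr1, chr3:96294050-96294098, minus strand: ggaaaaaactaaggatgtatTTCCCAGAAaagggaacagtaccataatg
The capitals begin 22 bases before the start in Fcgr4, 15 before the further downstream of the Fcgr3 starts, and 55 and 109 in Fcgr1. A match of letters describes the window and is not a bound site, and the data hold no measure of binding.

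Levels can be compared between genes per length, as FPKM (fragments scaled to gene length and library total). In CD36- NK cells Fcer1g stood at 198 ± 26.2 FPKM, followed by Fcgr3 (27.8 ± 7.33), Fcgr2b (21.7 ± 2.5), Fcgr4 (12.8 ± 8.11), Fcgr1 (11.5 ± 4.89) and Fcgrt (7.2 ± 2.21; SD, n = 3 each). In CD36+ NK cells the order was Fcer1g (202 ± 23.5), Fcgr4 (126 ± 37.0), Fcgr3 (38.2 ± 8.77), Fcgrt (27.7 ± 8.60), Fcgr2b (24.9 ± 3.26) and Fcgr1 (19.0 ± 3.44 FPKM). Fcgr4 thus stood second in FPKM in CD36+ NK cells, above the range of Fcgr3, while neighbours from Fcgr3 downwards overlapped in both groups. This order rests on the gene lengths behind the deposited FPKM, 1256 bases for Fcgr4, 3829 for Fcgr3 and 7526 for Fcgr2b. In CPM, without length, Fcgr2b had a higher mean than Fcgr4 in CD36+ NK cells (191 against 161 CPM). Fcgr3 overlapped with Fcgr4 there (122 to 193 against 104 to 198 CPM). The shares and ratios of FPKM below rest on the same lengths.

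The composition of the 4 Fcgr genes differed between the groups in every library. Fcgr4 made up 53.2%, 64.8% and 61.4% of their summed FPKM in the CD36+ NK libraries and 13.5%, 22.9% and 12.6% in the CD36- NK libraries. Fcgr3, the largest in CD36- NK cells, had a mean share of 37.9% there and 18.7% in CD36+ NK cells, and Fcgr2b 30.6% and 12.3%. The lower shares of these 2 genes came with a higher Fcgr4 in the sum, since the mean FPKM of each was itself not lower in CD36+ NK cells. The shares did not overlap for any of the 4 genes, with an exact two-sided permutation p of 0.1, the smallest that 3 against 3 libraries allow.

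**Figure D2:**
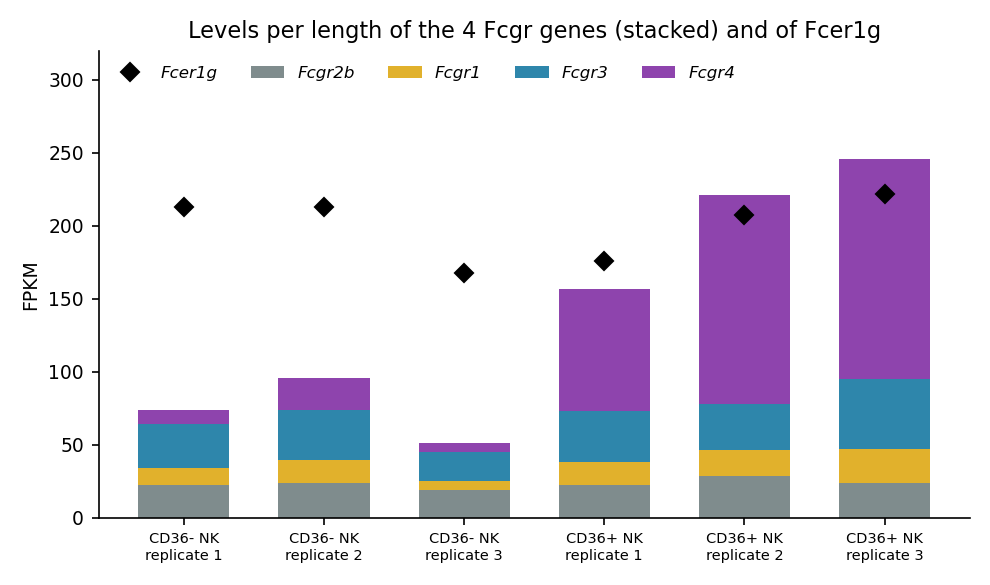
FPKM of Fcgr2b, Fcgr1, Fcgr3 and Fcgr4 stacked for each library, with Fcer1g as diamonds. The Fcgr4 section fills 53.2% to 64.8% of the CD36+ NK bars and 12.6% to 22.9% of the CD36- NK bars, while the diamonds stay between 168 and 222 FPKM.

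Because the activating chains depend on the FcR γ chain, their summed level was set against Fcer1g, a ratio that was chosen after the values had been seen. The sum of Fcgr1, Fcgr3 and Fcgr4 was 183 ± 44.4 FPKM in CD36+ NK cells and 52.1 ± 19.7 FPKM in CD36- NK cells (SD, n = 3 each). Divided by Fcer1g it came to 0.765, 0.928 and 1.00 in the CD36+ NK libraries and 0.243, 0.338 and 0.194 in the CD36- NK libraries. In FPKM the receptor chains thus approached the level of their shared partner in CD36+ NK cells. Divided by Fcgr2b, the activating chains gave 7.34 ± 1.68 and 2.36 ± 0.660 (SD, n = 3 each). Both ratios were higher in each CD36+ NK library (exact two-sided permutation p = 0.1 for each, the smallest possible).

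Ratios between 2 genes within a library do not depend on the scaling of libraries, and all 15 pairs of the 6 genes were compared. In 10 pairs the groups did not overlap, which were the 9 pairs with Fcgr4 or Fcgrt and the pair of Fcgr1 and Fcer1g. The 9 pairs restate the differences of these 2 DEGs on a scale without library scaling, and no share over other gene pairs was computed. Each of the 10 had an exact two-sided permutation p of 0.1, the smallest possible, and 0.15 after adjustment over the 15 pairs. Fcgr4 over Fcer1g differed most, with a mean log2 ratio of -1.08 in CD36+ NK cells and -4.46 in CD36- NK cells. Fcgr4 also shifted against Fcgrt, with log2 ratios of 0.48, 0.47 and 0.40 in the CD36+ NK libraries and -1.24, -0.52 and -1.35 in the CD36- NK libraries. Fcgr2b over Fcgr3, the inhibitory over the main NK receptor, overlapped between the groups (log2 difference -0.27, exact permutation p = 0.4).

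Besides Fcer1g, 2 other ITAM chains of NK cells were examined. Cd247, which encodes CD3ζ, an ITAM chain that pairs with NKp46 and, in human NK cells, with an Fcγ receptor, was a DEG that was lower in CD36+ NK cells. It had 24.3 ± 13.5 CPM in CD36+ NK cells and 102 ± 12.5 CPM in CD36- NK cells (SD, n = 3 each; log2 fold change -2.06, SE 0.350, edgeR adjusted p = 0.0144). The call was lost when CD36+ NK replicate 2 or either of the CD36- NK replicates 1 and 3 was left out (edgeR adjusted p up to 0.0574). Set against Fcer1g per length, Cd247 was at 0.0278, 0.00963 and 0.00851 in the CD36+ NK libraries and at 0.0559, 0.0535 and 0.0829 in the CD36- NK libraries, so Fcer1g was the more abundant signalling chain in all 6 libraries. Tyrobp, which encodes the ITAM adaptor DAP12, had 266 CPM in CD36+ NK cells and 347 CPM in CD36- NK cells (log2 fold change -0.38, edgeR adjusted p = 0.0938).

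**Figure D3:**
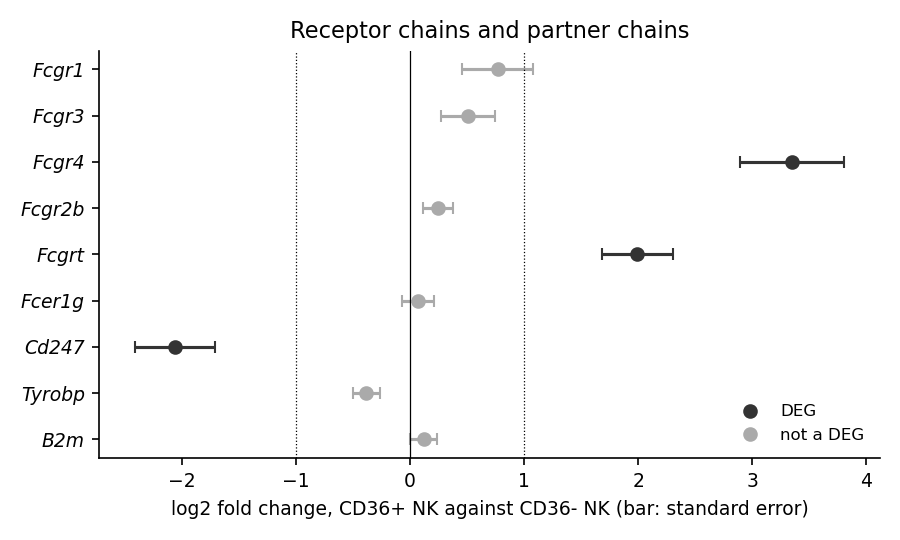
Log2 fold change of CD36+ NK against CD36- NK cells for the 6 Fc receptor genes and for Cd247, Tyrobp and B2m, with bars for the standard error and dotted lines at a fold change of 2. Fcgr4 (3.35) and Fcgrt (1.99) lie to the right, Cd247 (-2.06) to the left, and Fcer1g (0.07) near 0.

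The FcR γ chain also serves receptors that do not bind antibody. Of 10 tested genes of this kind 4 were DEGs higher and 4 were DEGs lower in CD36+ NK cells (80.0% in all, against 5.96% of all tested genes). The lower ones were NK receptors. Ncr1, which encodes NKp46, had 78.2 CPM against 423 CPM (log2 fold change -2.43, edgeR adjusted p = 0.000527), and the NKR-P1 genes Klrb1c, Klrb1a and Klrb1f had log2 fold changes of -2.46, -2.38 and -1.77. All 4 stayed DEGs without any one library. Those higher in CD36+ NK cells were myeloid receptors. Lilra5 had 37.5 CPM against 3.42 CPM (3.46, edgeR adjusted p = 0.0144), and the C-type lectins Clec4n, Clec4d and Clec4e, which encode Dectin-2, MCL and Mincle, had log2 fold changes of 2.57, 2.11 and 1.77. Each of these 4 calls was lost without CD36+ NK replicate 2 and in 1 or more further fits that left out a library, with adjusted p-values up to 0.0632 for Lilra5 (also lost without CD36- NK replicate 1 or 3), 0.0797 for Clec4e (also without CD36+ NK replicate 3) and 0.145 for Clec4n (kept only without CD36- NK replicate 2). Clec4d, also lost without any CD36- NK library, had a highest adjusted p of 0.1045. Pira2 (1.55, edgeR adjusted p = 0.0734) and Lilra6 (0.01) were not DEGs.

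**Figure D4:**
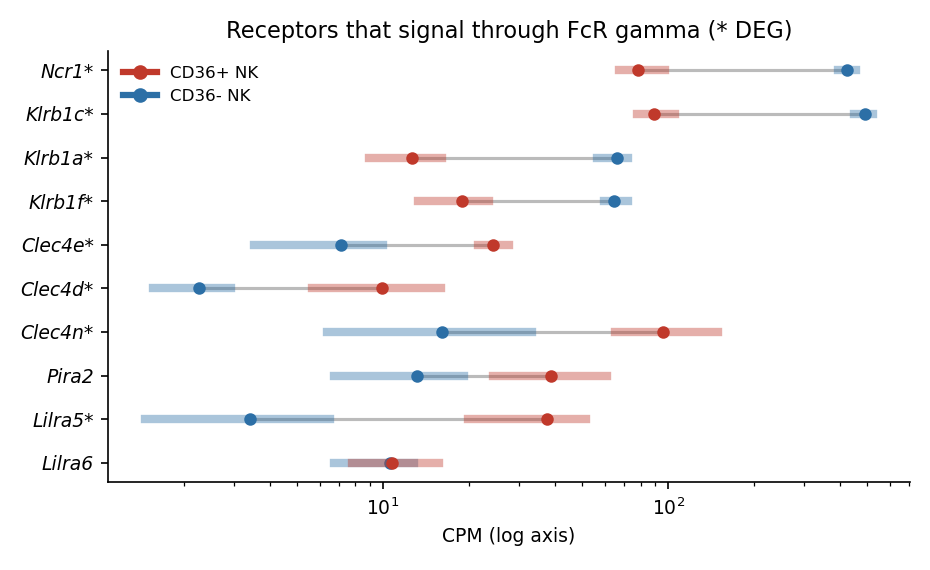
Mean CPM of 10 receptors that signal through the FcR γ chain (points; bars span the lowest to the highest library of each group, n = 3; log axis; asterisks mark DEGs). NK receptors such as Ncr1 (78.2 against 423 CPM) are lower in CD36+ NK cells, and myeloid receptors such as Lilra5 (37.5 against 3.42 CPM) are higher.

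Among 11 tested genes for other Fc receptors and Fc-binding proteins, 1 was a DEG (9.09%, against 5.96% of all tested genes), with a list median of 0.30. This was Fcrl5, a B cell receptor of the Fc receptor-like family, at 78.8 ± 20.5 CPM in CD36+ NK cells and 26.4 ± 7.55 CPM in CD36- NK cells (SD, n = 3 each; log2 fold change 1.58, edgeR adjusted p = 0.0131). It was lost when CD36+ NK replicate 2 or either of the CD36- NK replicates 1 and 3 was left out (edgeR adjusted p up to 0.0604). The genes of the high-affinity IgE receptor that the FcR γ chain completes on mast cells and basophils were low, with Fcer1a at 1.63 CPM in CD36+ NK cells and 4.47 CPM in CD36- NK cells (log2 fold change -1.47, edgeR adjusted p = 0.0967). Fcer1a was a DEG, lower in CD36+ NK cells, by DESeq2 and by edgeR's exact test, and the latter also called Fcrl6 lower. At an unadjusted p under 0.05 in the quasi-likelihood test this list held 3 genes higher and 2 lower (Fcer1a and Fcrl6). The higher ones were Fcrl5, Fcrla (0.60, edgeR adjusted p = 0.0297) and Fcrl1 (0.52, edgeR adjusted p = 0.0249), the last 2 at a fold change under 2. Of 6 immunoglobulin G and M genes, which encode the ligands, 0 were DEGs by edgeR's quasi-likelihood test, 0 by DESeq2 and 0 by edgeR's exact test, and 1 (Ighm) had an unadjusted p under 0.05 in the first. All 6 had positive log2 fold changes, from 0.37 for Ighg2b to 0.69 for Ighg1, with the lowest adjusted p at Ighm (7756 ± 1114 CPM against 4927 ± 881 CPM, SD, n = 3 each; log2 fold change 0.65, edgeR adjusted p = 0.0528).

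Downstream of the activating receptors, 1 of 19 tested genes was a DEG higher and 3 were DEGs lower in CD36+ NK cells. These were 21.1% in all, against 5.96% of all tested genes, with a list median of 0.26. Lower were the kinases of NK and T cells Fyn (-1.24, edgeR adjusted p = 0.00631), Lck (-1.78, 0.0150) and Zap70 (-1.79, 0.0167). Fyn was a DEG without any one library, while Lck was lost on leaving out CD36+ NK replicate 2 or either of the CD36- NK replicates 1 and 3 (edgeR adjusted p up to 0.0643), and Zap70 without these or CD36+ NK replicate 3 (up to 0.0721). Syk, the kinase that the FcR γ chain recruits, had a log2 fold change of 0.32 (edgeR adjusted p = 0.0612). Of 10 tested genes for inhibitory signalling below Fcgr2b, 1 was a DEG (10%, against 5.96% of all tested genes), the adaptor Dok2 (-2.0, edgeR adjusted p = 0.00135), which was lower without any one library, and Inpp5d, which encodes SHIP-1, had a log2 fold change of 0.05. At an unadjusted p under 0.05 this list held 3 genes higher (Dok3 0.64, Ptpn6 0.53 and Dok1 0.36, with edgeR adjusted p-values of 0.0287, 0.0512 and 0.0648) and 1 lower in CD36+ NK cells.

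The KEGG set for Fcγ receptor-mediated phagocytosis, as annotated in the deposited table, had 87 genes in the test, with 7 DEGs higher and 0 lower in CD36+ NK cells by edgeR's quasi-likelihood test. At an unadjusted p under 0.05 there were 22 higher and 11 lower, and DESeq2 and edgeR's exact test each gave 9 DEGs higher and 0 lower. The 7 DEGs were 8.05% of the set against 5.96% of all tested genes, and the set's median log2 fold change was 0.06. Besides Fcgr4, they included the lipid phosphatase Plpp1 (2.38, edgeR adjusted p = 0.0231) and the actin-binding protein Marcks (1.70, 0.0330). The count fell to 1 when either of the CD36+ NK replicates 2 and 3 or the first CD36- NK replicate was left out, and to 3 without CD36- NK replicate 3. In the KEGG set for FcεRI signalling 3 of 58 tested genes were DEGs higher (Vav2, Pla2g4a and Alox5) and 2 were DEGs lower (Fyn and Rac3), 8.62% in all, with a median of -0.02. Vav2, Pla2g4a and Alox5 had adjusted p-values of 0.0368, 0.0471 and 0.04999, each was lost in 4 or 5 of the 6 fits without 1 library, and the set's count fell from 5 to 2 or 3 on leaving out any library but CD36+ NK replicate 1 and CD36- NK replicate 2.

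Macrophage markers differed between the groups in the same direction as Fcgr4 and Fcgrt. Of 11 tested macrophage and Kupffer cell markers 5 were DEGs, all higher in CD36+ NK cells (among them Adgre1, Csf1r, Cd68 and Marco), with a list median of 2.87. The most expressed were Lyz2, Csf1r and C1qb, with log2 fold changes of 0.09, 1.89 and 2.87. Clec4f, a defining Kupffer cell gene, had 17, 624 and 0 counts in CD36+ NK replicates 1 to 3 and 0 in all CD36- NK libraries, and Vsig4 had 10, 181 and 6 counts against 0, 3 and 0. Most of the counts of both genes were thus in CD36+ NK replicate 2, and Clec4f was at 0 in CD36+ NK replicate 3, where the list as a whole was highest. Set against the mean log2 CPM of this list within each library, Fcgr4 was higher in CD36+ NK cells by 0.82. Fcgrt was at -0.67 with overlapping groups (exact permutation p = 0.3), and the other 4 genes ran from -1.80 for Fcgr1 to -2.57 for Fcer1g. The list mean itself was higher in CD36+ NK cells (7.53, 8.10 and 8.75 against 5.15, 6.77 and 4.55 in replicates 1 to 3). A gene at the same level in both groups thus comes out lower against this list, as Fcer1g did. The log2 fold changes of these 4 genes were themselves positive (0.07 for Fcer1g to 0.77 for Fcgr1). Set against the 11 NK lineage markers, which were led by Gzma, Il2rb and Nkg7, the differences ran from 2.47 for Fcer1g to 5.85 for Fcgr4. The NK list itself had a median log2 fold change of -2.43, so a gene at the same level in both groups comes out higher by about that much, as Fcer1g did. All differences but that of Fcgrt against the macrophage list had an exact two-sided permutation p of 0.1, the smallest possible. The part of macrophage RNA in these levels was not tested.

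**Figure D5:**
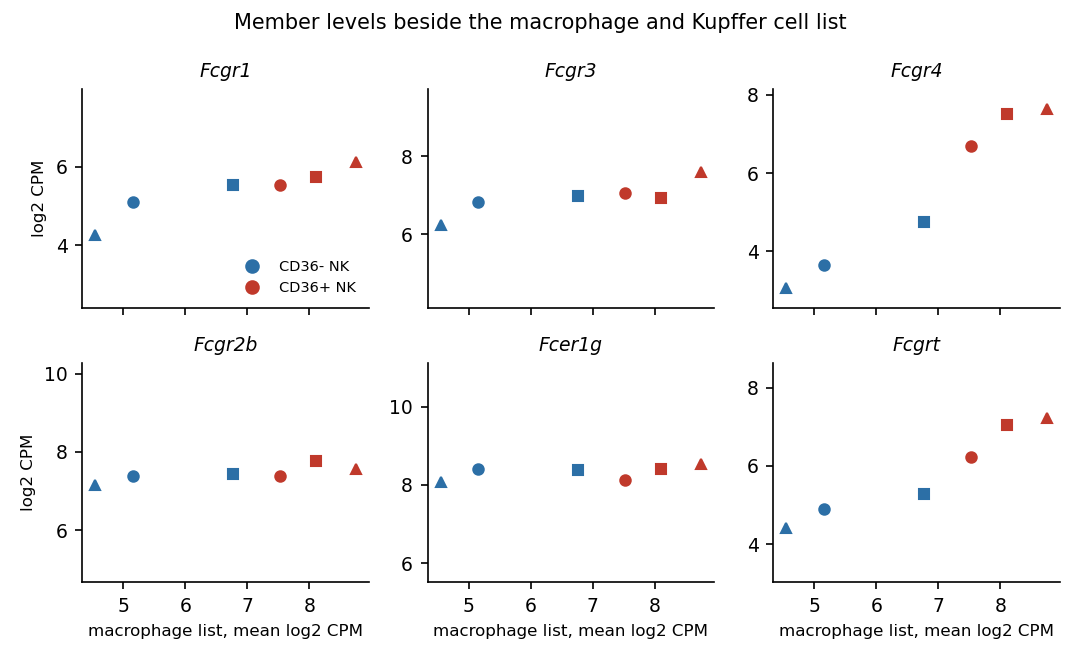
Log2 CPM of each Fc receptor gene against the mean log2 CPM of 11 macrophage and Kupffer cell markers, 1 point per library (shapes as replicate 1, circle; 2, square; 3, triangle). Each panel spans the same number of log2 units on the vertical axis. Fcgr4 and Fcgrt differ most along it, whereas Fcer1g and Fcgr2b change little between the library with the lowest list level (4.55) and that with the highest (8.75).

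Among other cells that carry Fc receptors, monocyte markers (led by Fn1, Chil3 and Ccr2) held 1 DEG higher, Cd14, and 1 lower, Ccr2, of 8 (1 higher and 3 lower by DESeq2 and by edgeR's exact test), with a median of -0.85 and a summed level of 943 to 1767 CPM in CD36+ NK libraries against 1207 to 2167 CPM. Neutrophil markers (Ngp, S100a9, S100a8) held 0 DEGs of 8 by edgeR's quasi-likelihood test (1 with an unadjusted p under 0.05) and 1 by DESeq2 and by edgeR's exact test, at 762 to 4494 CPM against 1561 to 3777 CPM. CD36+ NK replicate 1 had the highest neutrophil sum of its group and its lowest Fcgr4, Fcgrt, Fcgr1, Fcgr2b and Fcer1g. The same library held the T cell signal and the lowest macrophage list mean of the group (7.53). CD36- NK replicate 1 had the highest neutrophil sum of its own group (3777 CPM). It also had that group's highest Fcer1g (338 CPM) and was the lowest for none of the Fc receptor genes. B cell markers (with Cd79a and Ms4a1 among the most expressed) held 0 DEGs of 8 by each of the edgeR tests and DESeq2, although 5 had an adjusted p and 7 an unadjusted p under 0.05 in the quasi-likelihood test at a fold change under 2, with a median of 0.50. Dendritic cell markers (Irf8, Flt3, Cd209a) held 2 DEGs of 8, both higher, with a median of 0.32. Of the sinusoidal endothelial markers (Pecam1, Stab2, Stab1) 4 of 8 were tested and Stab1 was a DEG higher (2 higher by DESeq2 and by edgeR's exact test), with Gpr182 at 0 in every library. Mast cell and basophil markers (Kit, Hdc, Mcpt8) held 2 DEGs of 8, both lower (4 lower by DESeq2 and by edgeR's exact test), at 53.7 to 109 CPM against 127 to 149 CPM. T cell markers (Cd4, Cd8a, Cd3g) held 2 DEGs of 7, both higher, and the hepatocyte list, led by Ass1 and Alb, came to 12 to 24.9 CPM against 7.72 to 10.8 CPM with 0 DEGs of 1 tested by each of the edgeR tests and DESeq2 (1 with an unadjusted p under 0.05). The part of these cells in the Fc receptor levels was not tested.

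Without CD36+ NK replicate 1, the library with the T cell signal and the highest neutrophil sum, Fcgrt had a log2 fold change of 2.23 (edgeR adjusted p = 0.00449). The log2 fold changes of Fcgr1, Fcgr3, Fcgr2b and Fcer1g were then 0.87, 0.57, 0.33 and 0.17, and none of these genes was a DEG. The names of the libraries have 2 forms, with the number first in both replicates 1 and last in the other 4 libraries. Between the 2 libraries with the number first, the log2 fold change was 3.06 for Fcgr4, 1.32 for Fcgrt and 0.44 for Fcgr1, and -0.01 for Fcgr2b and -0.28 for Fcer1g. Among the 4 libraries with the number last it was 3.44, 2.24 and 0.92 for the first 3 genes, and 0.37 and 0.24 for Fcgr2b and Fcer1g. Fcgr4 and Fcgrt were thus higher in CD36+ NK cells within both sets of libraries, while Fcer1g differed in sign between them. What the name forms stand for is not stated in the sources used here.

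The likeness of the 6 genes over the libraries was described by Pearson's r of log2 CPM over the 6 libraries, which form 2 groups and share their preparation. All 15 pairs had a positive r. Fcgr4 and Fcgrt were the most alike (r = 0.988), followed by Fcgr1 and Fcgr3 (0.951), and the lowest values were those of Fcer1g with Fcgr4 (0.440) and Fcgrt (0.538) and of Fcgr2b with Fcgr3 (0.615). Among 10009 genes with a mean of at least 10 CPM, the closest to Fcgr4 were Rhbdf2, Cd300ld and Ear2 (r = 0.999 each), of which Cd300ld and Ear2 were DEGs with log2 fold changes of 2.89 and 2.71. For Fcgrt they were Marchf1, Fzd7 and Lipe (r from 0.9985 to 0.999), of which Fzd7 was a DEG (2.08). The closest to Fcgr1 were Nrp1, Id1 and Igsf6, to Fcgr3 Zcrb1, Arhgap31 and Cib1, to Fcgr2b Bid, Vsir and Msn, and to Fcer1g St3gal2, Msl3 and Ube2q2, and none of these 12 was a DEG.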

How the data were processed

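RNA-seq compared CD36+ NK and CD36- NK cells, 3 libraries each, grouped by sample title. The library names give the sign of CD36 differently from the titles. The authors filtered reads with Seqtk, mapped them with HISAT2 (2.0.4 in the submitters' processing notes) and quantified genes with StringTie. They deposited a count per gene and library without normalization, and the FPKM deposited by the authors beside it equalled the count over gene length and total within 1% in 100% of the 7439 genes checked. The notes name the rat assembly mRatBN7.2, although the identifiers are mouse Ensembl genes. Gene coordinates are the table's own, and their build is not given in the sources used here. The lines of 2 genes were broken and were rejoined. Library preparation is not described as stranded, so overlapping genes cannot be told apart by strand.

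Genes were kept by filterByExpr (minimum count 10), scaled by TMM and tested with the quasi-likelihood test of edgeR 4.0.16 in R 4.3.3, on all 6 libraries without a block. The script was tested on simulated data. A standard error is the size of the log2 fold change over the square root of F. Log2 CPM used a prior count of 2. Ratios, shares and levels against marker lists were compared by exact permutation over libraries (scipy 1.17.1), with p-values of ratios adjusted over the 15 pairs. Replicates differed by more than sampling noise (chi-square per degree of freedom 14.8 to 29.2). As alternatives, DESeq2 1.42.0 and the exact test of edgeR were run, with other normalizations, filters and prior counts, blocks by replicate number and by library name form, no fold threshold, and each library left out in turn.

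The members and lists were chosen with earlier results of these data known. The 6 genes are given in full. From each pathway list the DEGs of lowest p are named, up to 4 in each direction, from each marker list the 3 most expressed genes, and for each member the 3 genes of most similar course. A few genes that this rule would name are not reported here. Other named genes were chosen after their values were seen. Fcamr, Fcrls, Oscar and Gp6 had too few counts to be tested, and Pira6 had no row.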

Additional observations from a re-analysis of the deposited data

How the results depend on the processing

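Over 15 alternative fits, Fcgr4 was a DEG in 15, with log2 fold changes of 3.03 to 3.95, and Fcgrt in 14. Fcgr1, Fcgr2b, Fcgr3 and Fcer1g were DEGs in 0 of the 15, with adjusted p-values of 0.0624 to 0.404 for Fcgr1. Leaving out 1 library gave 1 to 2 DEGs among the 6 genes (Fcgrt was lost without CD36- NK replicate 1) and log2 fold changes of 1.79 to 2.23 for Fcgrt, 0.48 to 1.08 for Fcgr1, 0.28 to 0.66 for Fcgr3, 0.14 to 0.33 for Fcgr2b and -0.03 to 0.17 for Fcer1g, whose sign was negative (-0.022 and -0.033) without replicate 3 of CD36+ NK or of CD36- NK. DESeq2 and edgeR's exact test each called 9 macrophage and Kupffer cell markers in place of 5, and 2 and 3 other Fc receptors in place of 1, the added ones (Fcer1a, and Fcrl6 in the exact test) lower in CD36+ NK cells. DEGs over all genes numbered 880, and 417 to 1160 with 1 library left out, with 417 and 431 when CD36- NK replicates 1 and 3 were left out and 418 and 451 for CD36+ NK replicates 2 and 3, and 1122 and 1160 without CD36+ NK replicate 1 and CD36- NK replicate 2. The cause was not tested. Without the fold threshold, which admits more genes by construction, there were 1552. The pathway lists held 15 DEGs outside the Fc receptor genes, 23 without the fold threshold and 6 to 17 with 1 library left out, with 6 to 8 for CD36+ NK replicate 2 and for CD36- NK replicates 1 and 3.

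With the replicate number of the titles as a block there were 560 DEGs, and Fcgr4 (3.42, edgeR adjusted p = 0.0222) and Fcgrt (1.96, edgeR adjusted p = 0.0365) remained DEGs. The pathway lists then held 14, and the phagocytosis set 2, with Clec4n, Plpp1 and Marcks among the genes that were not DEGs in that fit (edgeR adjusted p = 0.0812, 0.0664 and 0.0605). Deviations from the group means correlated at 0.31, 0.05 and -0.08 between libraries of the same number, and only those of replicate 1, whose library names also share a form, correlated best with their own number. For CD36- NK cells, titles and library names carry different numbers. Beyond this, the sources used here state nothing that the same-numbered libraries share, and the numbers were not taken as pairs. The number of pairs of Fc receptor genes without overlap between the groups was 10, and 10 to 13 with 1 library left out.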
